A study of Mus musculus with 9 samples.

Results

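Plasma cells are the end stage of the B cell lineage and secrete antibody, and 9 genes of this programme were followed in mouse blood RNA: Jchain, Mzb1, Derl3, Xbp1, Prdm1, Irf4, Pou2af1, Sdc1 and Tnfrsf17. The genes were chosen by their symbols, as antibody joining chain, plasma cell factors and secretory chaperones, with their values in these libraries already known from an earlier analysis. All 9 were found among the 20926 genes of the deposited table, and all 9 were among the 12366 genes with a mean level high enough to be tested. Tnfrsf17 reached that level mainly through the healthy libraries. Which comparison was in view when the set was drawn up is not recorded, and arthritic against healthy mice was taken as that comparison. For the 9 genes that difference is therefore given as a description. No p-value is printed for it, and where a calling criterion is applied to it, the calls only sort the genes and are not evidence. The comparisons with irradiated mice reuse the healthy or the arthritic libraries, and the values of the irradiated libraries were known as well. Their p-values and intervals for the 9 genes are therefore not free of selection.

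The libraries fell into 3 groups of 3, all from male DBA/1 mice labelled as 7 weeks old. The paper gives that age at the division into groups, before immunisation and irradiation, and the age at blood sampling is not given. The Ctrl group was the control without arthritis and was not irradiated, and whether it was given adjuvant alone is not stated in the sources used here. The CIA group had an arthritis induced by collagen, which stands in for rheumatoid arthritis in mice and was raised by immunising with chick type II collagen in complete Freund's adjuvant and boosting in incomplete adjuvant. The CIA+THz group had the same arthritis and its swollen ankles were irradiated at 0.1 THz for 30 min a day over 14 days, under isoflurane anaesthesia. The sources used here do not give whether the other groups were anaesthetised, so irradiation and anaesthesia cannot be told apart, and they do not give whether each library is 1 mouse, so the p-values below measure only the spread between the libraries. The labels name blood leukocytes and the extraction protocol names total blood RNA. In bulk blood, fewer cells of a type and less RNA per cell cannot be told apart.

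A B cell that becomes a plasma cell switches on the transcription factors encoded by Irf4 and Prdm1, shuts down much of its B cell programme and, through Xbp1, enlarges the endoplasmic reticulum in which antibody chains are folded. Mzb1 and Derl3 serve that compartment, Jchain joins antibodies into polymers, Sdc1 marks the surface of the cell, and Tnfrsf17 receives survival signals from the ligands APRIL and BAFF. Most plasma cells live in bone marrow, spleen and gut, and few circulate in blood.

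The promoter sequences of 3 of the 9 genes are shown because the folding stress of a secreting cell acts on known DNA elements, and because Jchain and Derl3 had the largest log2 differences, on log2(rescaled FPKM + 0.1), between healthy and arthritic mice. Sequences came from RefSeq on GRCm38.p6, from 250 bases before to 50 bases after each gene's start, and 8 of the 9 genes had an entry, Mzb1 being the one without. Both strands were searched for 3 motifs, and capitals mark a match:
Jchain: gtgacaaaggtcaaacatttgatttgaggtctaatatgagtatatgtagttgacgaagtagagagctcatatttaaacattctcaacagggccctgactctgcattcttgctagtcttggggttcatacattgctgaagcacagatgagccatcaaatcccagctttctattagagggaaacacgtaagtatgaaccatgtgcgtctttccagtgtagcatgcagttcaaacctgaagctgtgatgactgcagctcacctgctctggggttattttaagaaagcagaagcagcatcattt
Derl3: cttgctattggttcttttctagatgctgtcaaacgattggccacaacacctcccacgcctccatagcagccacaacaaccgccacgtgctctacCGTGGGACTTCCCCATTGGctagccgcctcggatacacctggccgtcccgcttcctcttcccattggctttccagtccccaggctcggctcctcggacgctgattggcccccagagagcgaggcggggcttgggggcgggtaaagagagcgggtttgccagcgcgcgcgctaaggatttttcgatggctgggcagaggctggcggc
Pou2af1: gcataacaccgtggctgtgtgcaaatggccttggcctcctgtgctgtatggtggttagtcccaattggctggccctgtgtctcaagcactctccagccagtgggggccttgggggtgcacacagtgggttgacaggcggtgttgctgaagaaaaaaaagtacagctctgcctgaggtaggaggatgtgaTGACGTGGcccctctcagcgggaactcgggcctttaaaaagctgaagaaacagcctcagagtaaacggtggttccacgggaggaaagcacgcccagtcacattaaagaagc
The Derl3 promoter (chr10:75893148-75893447, + strand) held the ER stress response element, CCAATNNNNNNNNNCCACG, on its minus strand between -156 and -138 relative to the start. That motif was present in 39 of 32851 promoters of the same length (0.119%). The Pou2af1 promoter (chr9:51213440-51213739, + strand) held the unfolded protein response element, TGACGTGG, between -61 and -54, a motif found in 222 promoters (0.676%). The octamer ATGCAAAT, which the partner proteins of the Pou2af1 product bind, was present in 570 promoters (1.74%) and in none of the 8 members. The Jchain promoter (chr5:88527848-88528147, - strand) and 5 others held none of the 3 motifs, which says only that these letters were not in that window, and the matches overlapped no other match.

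Jchain and Derl3 were 11.7 times and 9.14 times as high in the Ctrl mean as in the CIA mean and had the largest differences on the log2(rescaled FPKM + 0.1) scale. By the ratio of means alone, Tnfrsf17 was further apart (21.5 times), at levels near 0. Levels are given as rescaled FPKM, the deposited fragment values (scaled by transcript length and library total) divided by 1 factor per library. Of the 9 genes, 7 were lower in CIA than in Ctrl and 2, Xbp1 and Pou2af1, were higher, with a median log2 fold change of -0.81 against -0.01 over all genes tested. In the irradiated CIA+THz mice 7 were higher than in CIA and 2, Xbp1 and Sdc1, were lower, with a median of 0.33 against 0.03 over all genes. Against Ctrl, 7 remained lower in CIA+THz and 2 were higher, with a median of -0.69 against 0.04. These comparisons share libraries, so their counts are not independent of each other.

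A gene was called when limma gave an unadjusted p under 0.05 and the log2 fold change, on log2(rescaled FPKM + 0.1), was above 0.67 in size, which is the criterion the study's methods give. In CIA against Ctrl the criterion was met downward by 4 of the 9 genes, Jchain, Mzb1, Derl3 and Tnfrsf17, and by none upward, where 4.25% of all tested genes met it downward and 9.04% in either direction. The groups did not overlap, with CIA lower, in 6 of the 9, where 11.8% of all genes did so. Of the 9 only Xbp1 lay higher in CIA with no overlap. Nothing is read from these counts or from which genes they hold, as the set was taken to be selected on this comparison. Between CIA+THz and CIA the criterion was met by 1 gene, Jchain, upward, against 2.94% of all genes upward and 4.54% in either direction. Of all tested genes 9.38% lay higher in CIA+THz with no overlap, and of the 9 only Jchain did. Xbp1 alone lay lower in CIA+THz with no overlap. Adjustment over the table left no gene under 0.05 by limma in that comparison (0%), with 1634 at an unadjusted p under 0.05. Between CIA+THz and Ctrl 3 genes met the criterion, Jchain, Mzb1 and Derl3, all downward, against 3.24% of all genes downward and 7.88% in either direction. In 5 of the 9 the CIA+THz libraries lay below every Ctrl library, against 12.0% of all genes. Pou2af1 alone lay above every Ctrl library. For these opposite directions of Xbp1 and Pou2af1 no share over all genes was computed, and nothing is read from them. At an adjusted p under 0.05 the table held 13 genes (0.105%), of which 1 was Jchain. Both CIA+THz comparisons reuse Ctrl or CIA libraries, and the CIA+THz values were known as well. Their results for the 9 genes are not independent of the selection.

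**Figure D1:**
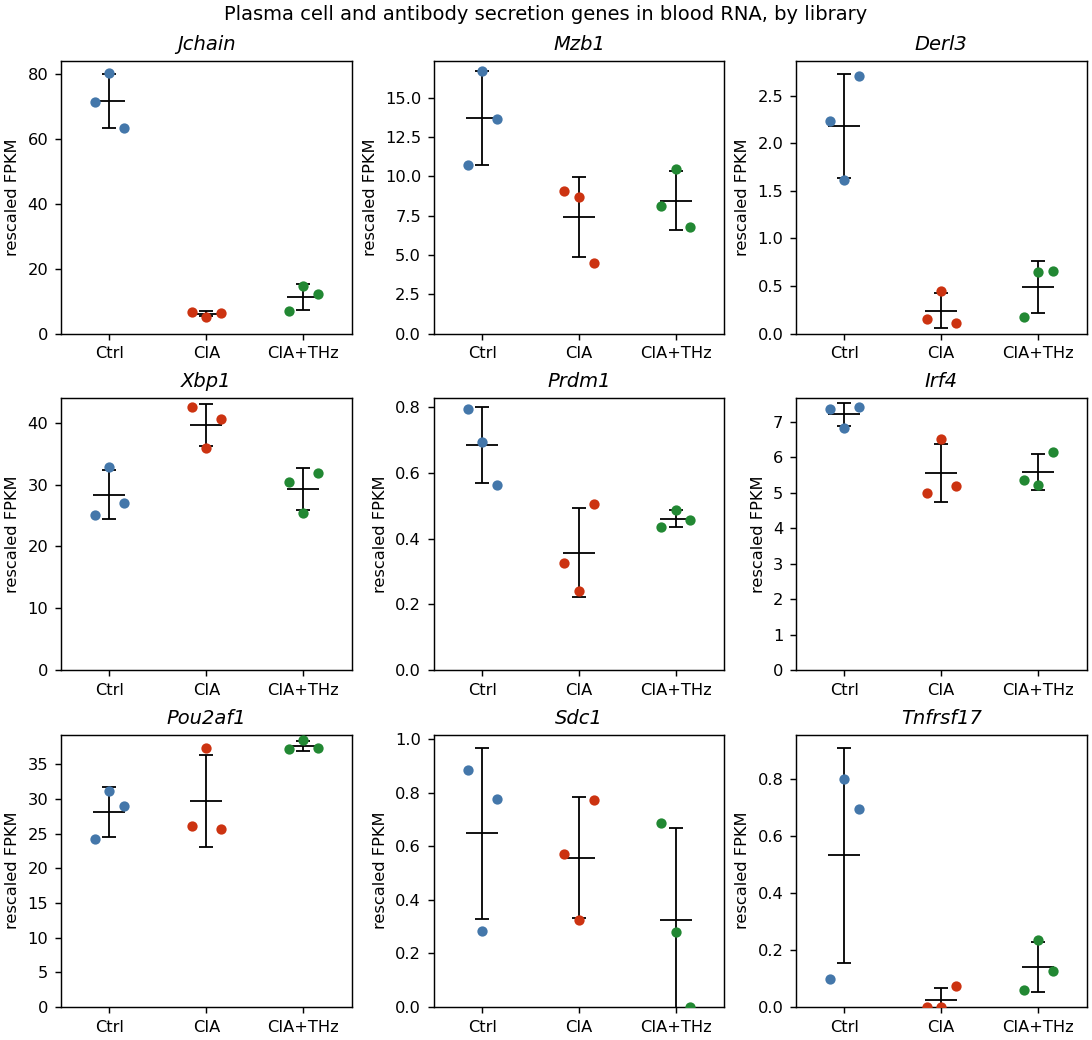
Rescaled FPKM (vertical axis, from 0) of each of the 9 genes in the 3 Ctrl, 3 CIA and 3 CIA+THz libraries, 1 point a library, with the group mean and SD as lines. Jchain fell from 63.5 or more in every Ctrl library to 6.69 or less in every CIA library, while Pou2af1 in CIA overlapped Ctrl.

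Jchain (chr5:88519809-88527891, - strand) encodes the joining chain that links IgA and IgM into polymers and is required for their transport across mucosa. Its level was 71.4, 80.4 and 63.5 rescaled FPKM in the 3 Ctrl libraries, with a mean of 71.8 ± 8.42 (SD, n = 3). In the CIA libraries it was 6.69, 5.20 and 6.45, a mean of 6.11 ± 0.803 (SD, n = 3), and every CIA library was below every Ctrl library. In the CIA+THz libraries it was 6.88, 14.7 and 12.2, a mean of 11.3 ± 4.0 (SD, n = 3). All 3 CIA+THz libraries lay above all 3 CIA libraries, the first of them by little, and all lay far below Ctrl, so that the CIA mean was 8.52% and the CIA+THz mean 15.7% of the Ctrl mean.

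Jchain differed by -3.53 (SE 0.15) on the log2 scale in CIA against Ctrl. Irradiated against unirradiated arthritic mice, the log2 fold change was 0.81 (SE 0.29, 95% interval 0.12 to 1.5), with an unadjusted p of 0.0272 and an adjusted p of 0.319 by limma, so the rise met the criterion and did not pass adjustment over all genes. The criterion was no longer met without CIA replicate 2 (0.70), CIA replicate 3 (0.85), CIA+THz replicate 2 (0.59) or CIA+THz replicate 3 (0.72). Compared with Ctrl, Jchain was lower in CIA+THz by -2.72 (SE 0.27, 95% interval -3.35 to -2.10), with an adjusted p of 0.0305 by limma.

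Mzb1 (chr18:35647267-35649367, - strand) encodes a chaperone of the endoplasmic reticulum in marginal zone B cells and plasma cells that aids antibody assembly and secretion. It was at 10.7, 16.7 and 13.6 rescaled FPKM in Ctrl (mean 13.7 ± 2.99, SD, n = 3) and at 9.07, 8.68 and 4.48 in CIA (mean 7.41 ± 2.55, SD, n = 3). The CIA libraries were all below the Ctrl libraries, and their mean was 54.1% of the Ctrl mean. The CIA+THz libraries held 8.08, 10.5 and 6.79 (mean 8.45 ± 1.87, SD, n = 3), which overlapped CIA and stayed under Ctrl. Mzb1 had a log2 fold change of -0.92 (SE 0.31) in CIA against Ctrl, and it lay under the criterion without Ctrl replicate 2 (-0.77), Ctrl replicate 3 (-0.91) or CIA replicate 3 (-0.60). Against CIA, CIA+THz differed by 0.23 (SE 0.31, 95% interval -0.50 to 0.96, adjusted p = 0.778 by limma). Against Ctrl it differed by -0.69 (SE 0.22, 95% interval -1.21 to -0.17, adjusted p = 0.182 by limma), and the FPKM as deposited, with no rescaling, gave -0.39, which did not meet the criterion. It was also lost with a pseudocount of 1 (-0.63) and without Ctrl replicate 2 (-0.53), CIA+THz replicate 1 (-0.67) or CIA+THz replicate 3 (-0.54).

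Derl3 (chr10:75893413-75895941, + strand), whose promoter carries the ER stress response element shown above, encodes a derlin that helps to draw misfolded proteins out of the endoplasmic reticulum for degradation. The Ctrl libraries held 2.23, 1.62 and 2.70 rescaled FPKM (mean 2.18 ± 0.545, SD, n = 3). The CIA libraries held 0.154, 0.448 and 0.115 (mean 0.239 ± 0.182, SD, n = 3), all below Ctrl. The CIA+THz libraries held 0.174, 0.641 and 0.658 (mean 0.491 ± 0.275, SD, n = 3), which reached higher than CIA but overlapped it. Derl3 had a log2 fold change of -2.85 (SE 0.50) in CIA against Ctrl, which a pseudocount of 1 reduced to -1.36. It was 0.79 for CIA+THz against CIA (SE 0.60, 95% interval -0.64 to 2.21, adjusted p = 0.606 by limma) and -2.06 in CIA+THz against Ctrl (SE 0.49, 95% interval -3.21 to -0.92, adjusted p = 0.128 by limma), the latter reduced to -1.10 by a pseudocount of 1.

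Derl3 was a low gene, and few fragments lay behind its CIA values. Relative depth, read from the whole-read steps of low genes and set to 1 for the first Ctrl library, ran from 1 to 1.10 in Ctrl, 1.01 to 1.28 in CIA and 1.35 to 1.87 in CIA+THz. With depth restored, Derl3 in multiples of its lowest library stood at 14.1, 9.82 and 21.6 in Ctrl, at 1.00, 3.03 and 1 in CIA and at 2.77, 7.04 and 6.73 in CIA+THz. The CIA values therefore differed from each other by only a few of these steps, whose size in fragments is not known.

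Xbp1 (chr11:5520659-5525893, + strand) encodes the transcription factor that its own stress-induced splicing activates, and it is used by many cell types besides plasma cells. It was at 25.2, 32.8 and 27.1 rescaled FPKM in Ctrl (mean 28.3 ± 3.98, SD, n = 3) and at 42.5, 35.9 and 40.6 in CIA (mean 39.7 ± 3.42, SD, n = 3). All CIA libraries were above all Ctrl libraries, which set Xbp1 apart from Jchain, Mzb1 and Derl3 in direction. The CIA+THz libraries held 30.5, 25.4 and 31.8 (mean 29.2 ± 3.41, SD, n = 3), all below CIA and within the range of Ctrl. That placing depended on the scale: as deposited, Xbp1 in CIA+THz was at 37.8, 29.0 and 35 FPKM, above the Ctrl values of 23.1, 27.8 and 28.6 and overlapping the CIA values of 38.6, 34.8 and 40.3. Xbp1 had a log2 fold change of 0.49 (SE 0.14) in CIA against Ctrl. With irradiation, CIA+THz against CIA, it was -0.44 (SE 0.12, 95% interval -0.73 to -0.15), with an adjusted p of 0.257 by limma, under the fold that the criterion asks for. Without rescaling that difference was -0.16. Set against Ctrl, CIA+THz differed by 0.05 (SE 0.14, 95% interval -0.29 to 0.38, adjusted p = 0.898 by limma), and without rescaling by 0.35. FPKM does not separate the spliced from the unspliced form of Xbp1.

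Prdm1 (chr10:44437177-44528501, - strand) encodes Blimp-1, the repressor that closes the B cell programme, and Irf4 (chr13:30749226-30766976, + strand) encodes a factor that is needed before it. T cells and myeloid cells also use both. Prdm1 was at 0.793, 0.693 and 0.563 rescaled FPKM in Ctrl (mean 0.683 ± 0.115, SD, n = 3), at 0.326, 0.239 and 0.506 in CIA (mean 0.357 ± 0.136, SD, n = 3) and at 0.436, 0.488 and 0.456 in CIA+THz (mean 0.460 ± 0.0263, SD, n = 3). Every arthritic library, irradiated or not, was below every Ctrl library, and the CIA and CIA+THz libraries overlapped. Its log2 fold change was -0.81 (SE 0.44) in CIA against Ctrl. Prdm1 differed by 0.33 in CIA+THz against CIA (SE 0.38, 95% interval -0.57 to 1.24, adjusted p = 0.738 by limma) and by -0.47 in CIA+THz against Ctrl (SE 0.37, adjusted p = 0.534 by limma).

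Irf4 stood at 7.37, 6.83 and 7.43 rescaled FPKM in Ctrl (mean 7.21 ± 0.329, SD, n = 3), the narrowest relative spread of the 9 genes in that group. It was at 4.98, 6.51 and 5.18 in CIA (mean 5.56 ± 0.829, SD, n = 3) and at 5.36, 5.22 and 6.16 in CIA+THz (mean 5.58 ± 0.510, SD, n = 3). Both arthritic groups lay below Ctrl with no overlap and lay across each other. Its log2 fold change was -0.38 (SE 0.19) in CIA against Ctrl, 0.01 for CIA+THz against CIA (SE 0.17, 95% interval -0.40 to 0.42, adjusted p = 0.990 by limma) and -0.37 in CIA+THz against Ctrl (SE 0.15, 95% interval -0.73 to -0.01, adjusted p = 0.271 by limma). Without rescaling the last difference was -0.07.

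Pou2af1 (chr9:51213708-51240080, + strand) encodes a coactivator that binds octamer factors on antibody gene promoters and is present throughout the B lineage. The Ctrl libraries held 24.2, 31.2 and 29.0 rescaled FPKM (mean 28.1 ± 3.60, SD, n = 3) and the CIA libraries 26.1, 37.4 and 25.7 (mean 29.7 ± 6.66, SD, n = 3), which overlapped. The CIA+THz libraries held 37.2, 38.5 and 37.3 (mean 37.7 ± 0.752, SD, n = 3), above every Ctrl library, and they overlapped CIA only through the second CIA library. Pou2af1 had a log2 fold change of 0.06 (SE 0.19) in CIA against Ctrl and 0.36 in CIA+THz against CIA (SE 0.16, 95% interval -0.01 to 0.74, adjusted p = 0.389 by limma). Compared with Ctrl, CIA+THz differed by 0.43 (SE 0.12, 95% interval 0.15 to 0.71, adjusted p = 0.150 by limma), and without rescaling it was 0.73 and met the criterion.

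Sdc1 (chr12:8771323-8793715, + strand) encodes syndecan-1, or CD138, the surface proteoglycan by which plasma cells are sorted. It was at 0.883, 0.285 and 0.778 rescaled FPKM in Ctrl (mean 0.649 ± 0.319, SD, n = 3), at 0.572, 0.324 and 0.775 in CIA (mean 0.557 ± 0.226, SD, n = 3) and at 0.688, 0.281 and 0 in CIA+THz (mean 0.323 ± 0.346, SD, n = 3). The 3 groups lay across each other, and Sdc1 was listed at 0 in 1 of the 9 libraries. Sdc1 had a log2 fold change of -0.14 (SE 0.55) in CIA against Ctrl, -1.02 for CIA+THz against CIA (SE 0.79, 95% interval -2.89 to 0.85, adjusted p = 0.612 by limma) and -1.16 in CIA+THz against Ctrl (SE 0.82, adjusted p = 0.494 by limma). The interval of CIA+THz against CIA covered large changes of either sign. Without CIA+THz replicate 3, the library at 0, these last differences were -0.20 and -0.34, and without CIA+THz replicate 1 they were -1.69 and -1.83. In multiples of its lowest library above 0, with depth restored, Sdc1 spanned 1 to 3.58 in Ctrl, 1.26 to 3.89 in CIA and 0 to 6.32 in CIA+THz.

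Tnfrsf17 (chr16:11313812-11320074, + strand) encodes BCMA, the receptor on which long-lived plasma cells depend. It was the lowest of the 9 genes, at 0.0997, 0.802 and 0.694 rescaled FPKM in Ctrl (mean 0.532 ± 0.378, SD, n = 3). The CIA libraries were at 0, 0 and 0.0744 (mean 0.0248 ± 0.0430, SD, n = 3) and the CIA+THz libraries at 0.0606, 0.235 and 0.127 (mean 0.141 ± 0.0880, SD, n = 3). Tnfrsf17 passed the filter of 0.1, at a mean of 0.233 over the 9 libraries, mainly through Ctrl. Its place in the counts of CIA against Ctrl rests on that group. The CIA libraries lay below Ctrl, though the first Ctrl library was close to them, and CIA+THz overlapped both groups. Tnfrsf17, on the log2(rescaled FPKM + 0.1) scale, had a log2 fold change of -2.12 (SE 0.73) in CIA against Ctrl, and it shrank to -0.55, under the criterion, with a pseudocount of 1. It also lay under the criterion without Ctrl replicate 2 (-1.73), Ctrl replicate 3 (-1.82), CIA replicate 1 or CIA replicate 2 (-1.99 each). It was 0.93 in CIA+THz against CIA (SE 0.52, 95% interval -0.31 to 2.18, adjusted p = 0.486 by limma) and -1.18 in CIA+THz against Ctrl (SE 0.71, adjusted p = 0.416 by limma). The latter met the criterion without Ctrl replicate 1 (-1.88) and was -0.40 with a pseudocount of 1. With depth restored, Ctrl libraries 2 and 3 held 7.74 and 8.80 times the first, the last CIA library 1.03 times and the CIA+THz libraries 1.53, 4.09 and 2.06 times it.

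**Figure D2:**
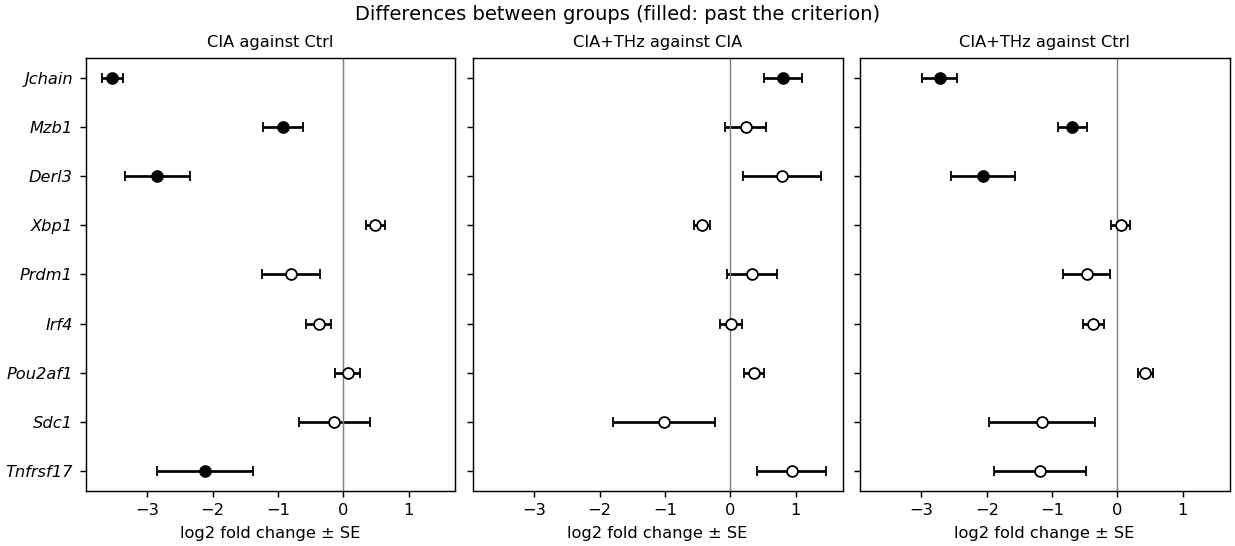
Log2 fold change of each of the 9 genes on the log2(rescaled FPKM + 0.1) scale (horizontal axis) with its standard error as a bar, for CIA against Ctrl, CIA+THz against CIA and CIA+THz against Ctrl, with filled points for genes past the criterion. Jchain lay at -3.53, 0.81 and -2.72 and was filled in all 3 panels. The first panel is a description only, and the others share libraries with it.

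By mean level per length over the 9 libraries, Xbp1, Pou2af1 and Jchain stood at the 85.5, 85.3 and 84.5 percentiles of the genes tested, Mzb1 at 65.8 and Irf4 at 54.7. Derl3 (20.7), Sdc1 (13.9), Prdm1 and Tnfrsf17 (6.73) were among the low genes, and so 3 genes by which plasma cells are commonly defined were the least abundant of the set in blood. In Ctrl the order was led by Jchain, whose lowest Ctrl library was above the highest of any other member, with Xbp1 and Pou2af1 overlapping each other next. In CIA the order was led by Xbp1 and Pou2af1, whose CIA libraries overlapped, with Mzb1, Jchain and Irf4 overlapping below them. With irradiation Pou2af1 came first, above Xbp1 with no overlap, and Jchain and Mzb1 overlapped each other below, with Irf4 under both.

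Genes of the B cells from which plasma cells arise were not lower as a group in the arthritic mice. The sum of 16 B cell identity genes ran from 569 to 683 rescaled FPKM in Ctrl, from 621 to 767 in CIA and from 715 to 917 in CIA+THz, the CIA range overlapping both others. Of these 16 genes 1 rose past the criterion in CIA against Ctrl and none passed between CIA+THz and CIA. In CIA+THz against Ctrl 4 rose and 1 fell. The medians were 0.16, 0.20 and 0.45. Over all tested genes the criterion was met in either direction by 9.04%, 4.54% and 7.88% in these comparisons. The gene that rose in CIA was Blk, a B cell kinase (log2 0.81). Those that rose in CIA+THz against Ctrl were Blk (0.74), the lineage factor Pax5 (0.78), the class II transactivator Ciita (0.77) and the low-affinity IgE receptor Fcer2a (1.03). Among the most abundant, Cd79a, Ms4a1 and Cd22 had CIA means of 255, 75.9 and 51.5 against 219, 79.8 and 45.4 in Ctrl.

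Set against the summed B cell genes, Jchain amounted to 12.5%, 13% and 9.31% in the Ctrl libraries, to 1.00%, 0.677% and 1.04% in CIA and to 0.961%, 1.60% and 1.51% in CIA+THz. The CIA+THz libraries overlapped the CIA libraries on this scale, which the rescaled FPKM did not show. Derl3 amounted to 0.392%, 0.261% and 0.396% in Ctrl, 0.0230%, 0.0584% and 0.0185% in CIA and 0.0243%, 0.0699% and 0.0812% in CIA+THz, again low in both arthritic groups. Xbp1 amounted to 4.42%, 5.29% and 3.96% in Ctrl, 6.35%, 4.67% and 6.53% in CIA and 4.26%, 2.77% and 3.93% in CIA+THz, with CIA still above CIA+THz. The CIA and Ctrl libraries overlapped for Xbp1 on this scale, which they did not in rescaled FPKM. Pou2af1 stayed between 3.89% and 5.19% in all 9 libraries, the groups overlapping.

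**Figure D3:**
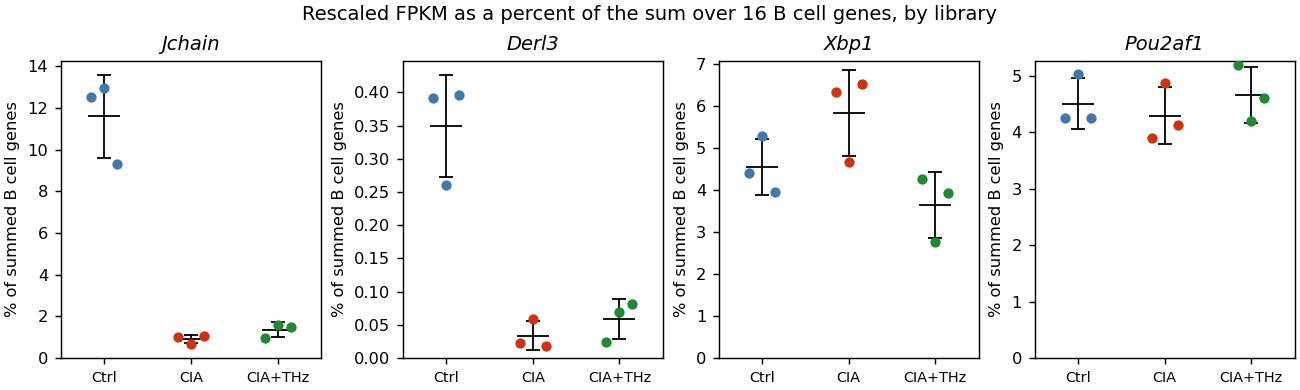
Rescaled FPKM of Jchain, Derl3, Xbp1 and Pou2af1 as a percent of the sum over 16 B cell genes (vertical axis, from 0), 1 point a library, with the mean and SD of each group of 3. Jchain stood at 9.31% or more in Ctrl and at 1.60% or less in the 6 arthritic libraries, while Pou2af1 kept between 3.89% and 5.19%.

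Of 11 further genes tied to plasma cells, 10 were tested, Fkbp11 being at 0 in 8 libraries. In CIA against Ctrl 8 were lower and 2 higher, and 1 passed the criterion, downward. That gene was Trp53inp1, a stress-induced protein of autophagy and cell death, with a Ctrl mean of 125 ± 19.9, a CIA mean of 68.6 ± 0.155 and a CIA+THz mean of 68.1 ± 0.930 (SD, n = 3 each) and a log2 fold change of -0.85. None passed in CIA+THz against CIA, where 5 were higher and 5 lower. Set against Ctrl, CIA+THz had 2 called lower: Trp53inp1 fell by 0.86 and Ell2, the elongation factor that favours the secreted form of antibody transcripts, fell by 0.77, from 333 ± 72.1 to 195 ± 43.8 (SD, n = 3 each). The medians were -0.39, 0.07 and -0.17. Cd93 and Tnfrsf13b, also among the 4 most abundant, had Ctrl means of 107 and 41.5, CIA means of 97.7 and 44.6 and CIA+THz means of 95.3 and 55.2. The Ctrl means of Ell2, Trp53inp1 and Cd93 were above that of Jchain (71.8), and which blood cells carried them was not tested. Of all tested genes, 4.25% met the criterion downward in CIA against Ctrl and 3.24% in CIA+THz against Ctrl.

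Of 32 genes of folding, translocation and degradation in the endoplasmic reticulum, 2 fell past the criterion in CIA against Ctrl, where 4.25% of all tested genes fell, and none rose, and none passed in the other comparisons, with medians of -0.12, -0.01 and -0.09. Both that fell are chaperones of secreted proteins, a function for which the list was chosen. Hsp90b1, which encodes GRP94, went from 74.4 ± 6.27 to 41.6 ± 6.93 with a CIA+THz mean of 50.1 ± 4.98 (SD, n = 3 each), a log2 fold change of -0.85. Pdia4, a disulphide isomerase, went from 23.2 ± 5.78 to 13 ± 2.94 with a CIA+THz mean of 16 ± 1.67 (SD, n = 3 each), a log2 fold change of -0.82. The most abundant, the translocon subunit Sec61a1, had means of 158 for Ctrl, 207 for CIA and 175 for CIA+THz, and the sum of the list ran from 1201 to 1372, from 1217 to 1260 and from 1164 to 1212.

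Of 8 receptors and ligands of plasma cell survival and homing, none passed the criterion in CIA against Ctrl or in CIA+THz against Ctrl. With irradiation, CIA+THz against CIA, Cxcl12, the chemokine that holds plasma cells in the marrow, rose by 1.66 on the log2 scale at low levels, from a CIA mean of 0.485 ± 0.396 to 1.66 ± 0.958, with a Ctrl mean of 1.17 ± 0.634 (SD, n = 3 each) and an adjusted p of 0.314 by limma. Its receptor Cxcr4 had means of 101, 111 and 80.0, and the BAFF receptor Tnfrsf13c had means of 34.0, 31.3 and 37.4. The list's medians were 0.01, 0.15 and 0.24. Of all tested genes 2.94% rose past the criterion in CIA+THz against CIA.

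**Figure D4:**
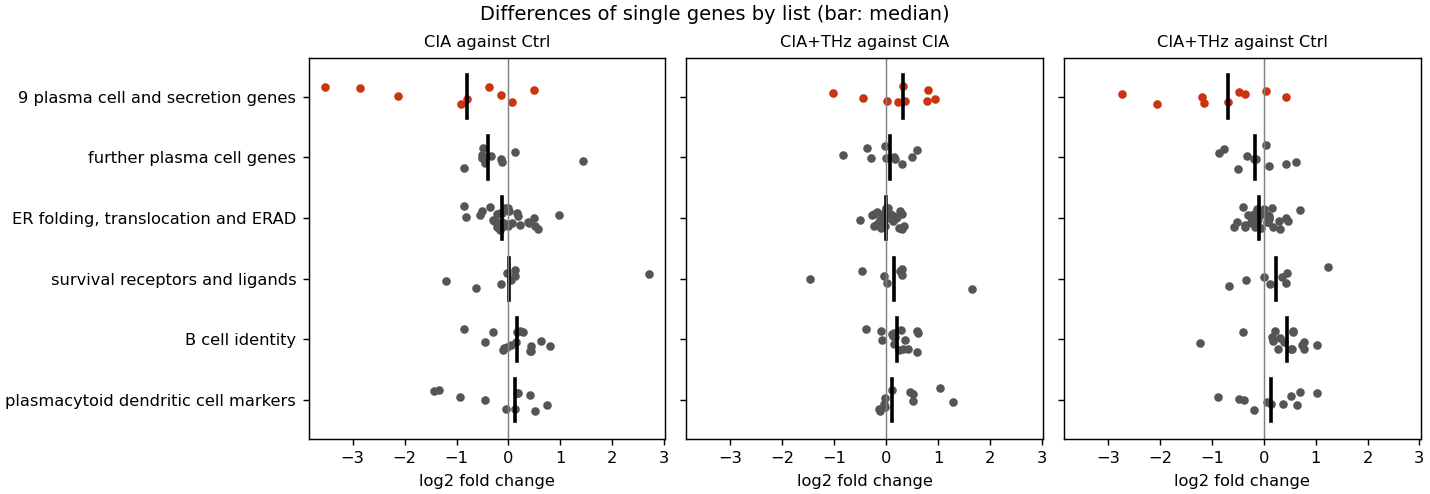
Log2 fold change of single genes (points, horizontal axis) with the median of each list as a bar, for the 9 genes (red) and 5 other lists (grey) in the 3 comparisons. The 9 genes had medians of -0.81, 0.33 and -0.69, and the 32 genes of the endoplasmic reticulum -0.12, -0.01 and -0.09.

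Other blood cells moved with the groups, and their part in the results above was not tested. Of all tested genes 9.04% met the criterion in either direction in CIA against Ctrl, 4.25% downward. In CIA+THz against CIA 4.54% met it, 2.94% upward, and in CIA+THz against Ctrl 7.88% met it, 3.24% downward. The counts below are to be set beside these shares. Plasmacytoid dendritic cells, which also carry a large secretory apparatus, were followed by 12 markers. Of these Klk1 was at 0 in all 9 libraries and 11 were tested. Ccr9 fell (log2 -1.33) and Ly6d rose (0.74) in CIA against Ctrl, and none passed in CIA+THz against CIA. In CIA+THz against Ctrl 1 rose and 1 fell. The sums were 145 to 194, 196 to 252 and 204 to 241 in Ctrl, CIA and CIA+THz. Ly6d was the largest part of these sums, with means of 72.3, 122 and 116. Of the 11 tested, 6 were higher and 5 lower in CIA against Ctrl. Siglech, the defining marker of plasmacytoid dendritic cells, had means of 0.799, 0.281 and 0.715 and was at 0 in 2 libraries. The 12 monocyte markers summed to 3273 to 3602 in Ctrl, 5689 to 6351 in CIA and 3860 to 4149 in CIA+THz, with 8 called higher in CIA against Ctrl, 3 lower in CIA+THz against CIA and 6 higher in CIA+THz against Ctrl. The 12 T cell markers summed to 458 to 519, 363 to 403 and 460 to 613 in the same order, with 2 called lower in CIA against Ctrl and 2 higher in CIA+THz against CIA. The 12 neutrophil markers summed to 12435 to 21008, 14589 to 19140 and 10700 to 12133. The Ctrl and CIA sums overlapped, the CIA+THz sums lay below both, and all consist mostly of S100a9. Between CIA and Ctrl, 3 of the 12 markers, the granule genes Camp (4.86), Ltf (4.08) and Ngp (3.02), were called higher on the log2 scale and Mmp8 (-1.35) lower. In CIA+THz against CIA 4 were called lower, and in CIA+THz against Ctrl 3 were called higher and 3 lower. The 8 erythroid markers summed to 69163 to 103749, 87231 to 97923 and 47505 to 65507, nearly all of it Alas2 (means of 85630, 91159 and 55983), with 1 called lower in CIA and 3 lower in CIA+THz, each against Ctrl.

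Genes whose pattern was most like that of Jchain were sought over the 9 libraries among 9747 genes with a mean of at least 1, by Pearson's r on the log2 scale, as a description of points that share libraries and groups. The 5 with the highest r were Rock2 (0.968), Cmah (0.968), Klf1 (0.966), Klhl20 (0.964) and Zfr (0.961). Klf1, a factor of red cell precursors that is also in the erythroid list, had a Ctrl mean of 1.96, a CIA mean of 0.648 and a CIA+THz mean of 0.742. It passed the filter of a mean of at least 1 only through its Ctrl libraries. Rock2, a kinase of the cytoskeleton, had means of 75.8, 50.8 and 54.8. Both had a smaller ratio of Ctrl to CIA than Jchain. Among the 9 genes, r with Jchain was 0.921 for Derl3, 0.836 for Prdm1, 0.805 for Tnfrsf17, 0.773 for Irf4, 0.757 for Mzb1 and 0.131 for Sdc1, and it was negative for Pou2af1 (-0.33) and Xbp1 (-0.62). Set among the 9747 genes, Derl3 ranked 44, Prdm1 283, Tnfrsf17 393, Irf4 531 and Mzb1 601, so many other genes followed Jchain more closely. The 12 immunoglobulin constant region genes, the most direct RNA measure of antibody production, were not analysed here.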

How the data were processed

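Blood RNA was sequenced in paired-end mode in 9 libraries, 3 per group, and groups were taken from the sample labels. The authors deposited FPKM, 1 column per library for 20926 gene symbols. The submitters' processing notes name bcl2fastq 2.0, HISAT2, StringTie, DESeq2 and the build mm10, while the annotation and strand setting are not given in the sources used here, so overlapping antisense genes cannot be told apart. FPKM holds no counts, and only relative depth could be recovered.

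Libraries were put on 1 scale by median-of-ratios factors (0.847 to 1.24) from the 10312 genes with a value in every library, which lowered CIA+THz by 0.28 against CIA and by 0.31 against Ctrl on the log2 scale. Genes with a mean of at least 0.1 were tested on log2(rescaled FPKM + 0.1) with limma 3.58.1 (with a trend) in R 4.3.3, each pair of groups on its 6 libraries, with Benjamini-Hochberg adjustment over 12366 genes. The script was checked on simulated data. Gene coordinates were looked up by symbol in GENCODE (GRCm38).

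The members and all lists were chosen with earlier results of these data known. All 9 members are named. From the other lists, the rule names at most the 4 most abundant genes and those called or at 0 in all libraries, and for Jchain the 5 genes of highest r. For markers of T cells, neutrophils, monocytes and red cells only counts and sums are printed, apart from the few genes the sums or calls rest on, and in the erythroid list Ahsp was not analysed here. In the B cell list, results for 2 single genes are not reported here. Outside the rule, Siglech and Fkbp11 were named after their values were seen. Alternatives were FPKM as deposited, a pseudocount of 1, a stricter and no filter on low genes, a fit without the trend, a joint fit of the 3 groups, a replicate block, the adjusted p, and each library left out.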

Additional observations from a re-analysis of the deposited data

How the results depend on the processing

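The count of members past the criterion was 4 for CIA against Ctrl, 1 for CIA+THz against CIA and 3 for CIA+THz against Ctrl. With an adjusted p under 0.05 by limma it was 1, 0 and 1. The first is no evidence, since the set was taken to be selected on that comparison. The second shares its CIA libraries and the last its Ctrl libraries. With a mean of at least 1, which left 5 members and gave no value for Prdm1, Sdc1, Tnfrsf17 and Derl3, the count was 2 for CIA against Ctrl. Without a trend the count was 2 for CIA+THz against CIA. Leaving out each library in turn gave 2 to 4, 0 to 1 and 2 to 4. Small differences changed sign when a library was left out: Sdc1 (-0.56 to 0.15) and Pou2af1 (-0.11 to 0.16) in CIA against Ctrl, Mzb1 (-0.093 to 0.41) and Irf4 (-0.061 to 0.13) in CIA+THz against CIA, and Xbp1 (-0.034 to 0.16) in CIA+THz against Ctrl. No member changed sign with the FPKM as deposited. That setting moved CIA+THz against CIA to 0.51 for Mzb1, 0.56 for Prdm1, 0.28 for Irf4 and 0.64 for Pou2af1, and CIA+THz against Ctrl to -0.21 for Prdm1. A pseudocount of 1 shrank the log2 differences of low genes, to -0.31, 0.11 and -0.20 for Prdm1 and -0.07, -0.26 and -0.33 for Sdc1 in the 3 comparisons, and to 0.26 for Derl3 and 0.15 for Tnfrsf17 in CIA+THz against CIA. There Derl3 ran from 0.52 to 1.27 and Prdm1 from 0.14 to 0.56 with a library left out. The labels do not say whether replicate numbers mark a shared animal or day, and same-numbered libraries did not deviate together (r from -0.05 to 0.03). The replicate block gave 4, 1 and 3 members and changed no member's call. Low members are limited by depth, which is known only relative to the first Ctrl library.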
